A study of Mus musculus with 6 samples.

Results

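Deep-layer corticofugal identity genes are the genes by which projection neurons of cortical layers 5 and 6 are recognised, and 10 of them, chosen by symbol, were followed in P7 mouse cortex: Bcl11b, Fezf2, Tbr1, Sox5, Foxp2, Tle4, Ldb2, Crym, Zfpm2 and Etv1. All 10 were found among the 24972 genes of the deposited table, and all 10 were among the 15800 genes tested. The P7 cortex of Zmiz1f/f mice, called wildtype, gave 3 RNA-seq libraries, and that of Zmiz1f/f;Emx1Cre mice, called Zmiz1-KO, gave another 3. Both groups thus carry the floxed Zmiz1 allele, and only the second also carries Cre under the control of Emx1, which acts in cortical progenitors and so reaches the excitatory neurons, while interneurons and striatal neurons come from outside that lineage. The labels also mention the isolation of progenitor cells, but the extraction text names whole cortex, and no source says if each library is 1 animal, so the p values measure the spread between these libraries.

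Corticofugal neurons send their axons out of the cortex. Subcerebral projection neurons (SCPN) of layer 5 reach the brainstem and spinal cord, and corticothalamic projection neurons (CThPN) of layer 6 reach the thalamus. Their identities are set by transcription factors that restrain each other: Fezf2 and its downstream factor Bcl11b (also called CTIP2) promote the SCPN fate, Tbr1 promotes the CThPN fate and represses Fezf2, and Sox5 times when the successive classes arise.

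Zmiz1 itself was higher, not lower, under the label of its deletion, at 9944, 9779 and 9660 normalized counts against 8119, 7929 and 7461 in wildtype (log2 fold change 0.32, standard error 0.040, limma adjusted p = 0.00125). The table gives no values per exon, so transcripts without the floxed exons are counted with the rest, and the groups are called by their labels throughout. Normalized counts are the authors' DESeq2-scaled values. Their sum over a library divided by its most common low value put the approximate depth at 15495006 to 17858811 units of that value. The most common low value lay from 1.83 to 2.11 over the libraries, so if 1 unit is a read or a read pair is not settled. Xist was high in 1 library of each group (wildtype replicate 3 at 25307 and Zmiz1-KO replicate 2 at 24403 normalized counts), so each group held 1 library with RNA from female tissue. Markers of cortical excitatory neurons, among them Slc17a7 with 18675 to 20879 normalized counts, were present in every library.

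None of the 10 deep-layer genes passed an adjusted p of 0.05 in the comparison of the libraries labelled Zmiz1-KO with wildtype (limma, Benjamini-Hochberg over all 15800 genes). Among all tested genes 0.411% did (65 genes), so a count of 0 among 10 is no result about the group. At an unadjusted p under 0.05 there were 4 of the 10, namely Bcl11b and Foxp2, with higher values, and Sox5 and Etv1, with lower ones. Over all tested genes the share was 11%, made up of 5.13% higher and 5.84% lower. In 2 of the 10, both higher, the groups were without overlap, against 16.3% of all tested genes (8.1% higher and 8.16% lower). limma-voom also called 0 of 10, against 0.373% of all tested genes. The median log2 fold change of the 10 genes was -0.03 (all tested genes -0.00018), with 4 positive and 6 negative values from -0.23 to 0.34. The median absolute log2 fold change was 0.11, against 0.07 over all tested genes. In bulk cortex, fewer cells of a type and less RNA per cell cannot be told apart in any of these values. Since only the Zmiz1-KO group carries Cre, the Cre allele and the deletion of Zmiz1 cannot be told apart either.

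**Figure D1:**
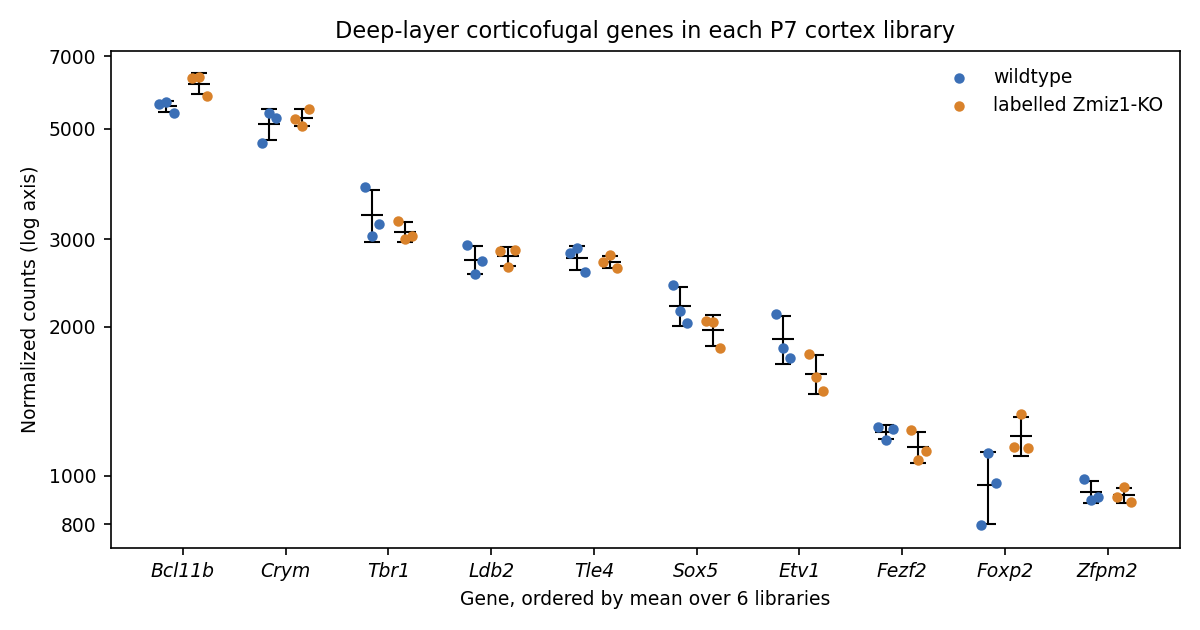
Normalized counts (log axis) of the 10 deep-layer genes, with 1 point per library, wildtype in blue and the libraries labelled Zmiz1-KO in orange; bars give mean ± SD (n = 3 per group). The groups are apart only for Bcl11b and Foxp2, in both of which the lowest Zmiz1-KO library lies above the highest wildtype library.

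Among the layer 5 genes, Fezf2, the zinc finger factor that selects the SCPN fate, lies on chromosome 14 of GRCm38 from 12342094 to 12348189. Its 3 wildtype libraries held 1256, 1182 and 1245 normalized counts, against 1237, 1075 and 1122 under the Zmiz1-KO label. The groups overlapped, since replicate 1 labelled Zmiz1-KO lay between the wildtype values, and the log2 fold change was -0.10 (standard error 0.064, 95% interval -0.24 to 0.03, limma adjusted p = 0.594). It was -0.16 without replicate 1 and -0.06 without replicate 2 labelled Zmiz1-KO.

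Bcl11b, a zinc finger repressor needed for SCPN axons to reach the spinal cord and also a known gene of striatal projection neurons and interneurons, lies on chromosome 12 from 107910403 to 108003602. Wildtype libraries held 5615, 5664 and 5391 normalized counts and Zmiz1-KO libraries 6331, 6356 and 5822, so every value of the second group lay above the first. The means were 5557 ± 146 and 6170 ± 301 (SD, n = 3 per group). This is 0.15 on the log2 scale (standard error 0.044, 95% interval 0.06 to 0.24). Its limma adjusted p of 0.191 missed the threshold, and the exact permutation test over 3 against 3 libraries gave its smallest possible p of 0.1.

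Etv1, an ETS factor (also called ER81) of layer 5, lies on chromosome 12 from 38779380 to 38870484. Normalized counts were 2124, 1811 and 1731 for wildtype and stood at 1762, 1580 and 1481 under the Zmiz1-KO label. Replicate 1 of the second group exceeded wildtype replicate 3, so the groups overlapped in that 1 pair of libraries. The log2 fold change of -0.23 was the most negative of the 10 genes (standard error 0.083, 95% interval -0.41 to -0.05, limma adjusted p = 0.335). Of the 75-base stretches of Etv1 transcripts, 7.76% also occur in transcripts of other genes, mostly Gm5454, so its count is uncertain to that extent.

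Ldb2, a cofactor that binds LIM domain proteins and marks SCPN, lies on chromosome 5 from 44472132 to 44799680. Its 3 wildtype libraries had 2915, 2557 and 2706 normalized counts and those labelled Zmiz1-KO 2834, 2635 and 2848, which differ by 0.03 on the log2 scale (95% interval -0.09 to 0.14, limma adjusted p = 0.914). Crym, a thyroid hormone binding protein of layer 5 neurons, lies on chromosome 7 from 120186380 to 120202111. It had 4688, 5373 and 5267 normalized counts for wildtype against 5248, 5073 and 5493, a difference of 0.05 on the log2 scale (95% interval -0.06 to 0.16, limma adjusted p = 0.810). For both genes the groups interleaved, and the 95% intervals reach no further than 0.16 from 0 on the log2 scale.

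Among the layer 6 genes, Tbr1, the T-box factor of CThPN, lies on chromosome 2 from 61802930 to 61814114. Its normalized counts were 3818, 3050 and 3216 for wildtype, and 3261, 3003 and 3037 for Zmiz1-KO. Wildtype replicate 1 stood above the other 5 libraries, which ran from 3003 to 3261. The log2 fold change of -0.11 (standard error 0.077, 95% interval -0.28 to 0.06, limma adjusted p = 0.662) was -0.02 without that library and -0.18 without wildtype replicate 2.

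Foxp2, a forkhead factor of layer 6 and also a known gene of striatal projection neurons, lies on chromosome 6 from 14901349 to 15441977. The wildtype libraries held 796, 1110 and 968 normalized counts, and those under the Zmiz1-KO label 1146, 1332 and 1136. All values of the second group were higher, although wildtype replicate 2 came close to the lowest of them. The means of 958 ± 158 and 1205 ± 110 (SD, n = 3 per group) gave the largest difference among the 10 genes, a log2 fold change of 0.34 (standard error 0.12, 95% interval 0.06 to 0.62, limma adjusted p = 0.362, exact permutation p = 0.1). Without wildtype replicate 1 it was 0.21 (limma adjusted p = 0.441).

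Tle4, a corepressor of the Groucho family that marks CThPN, lies on chromosome 19 from 14448150 to 14598051. Its 2813, 2872 and 2576 normalized counts for wildtype and 2697, 2781 and 2621 for Zmiz1-KO differed by -0.03 on the log2 scale (95% interval -0.13 to 0.08, limma adjusted p = 0.900). Zfpm2, a cofactor of GATA factors (also called FOG2) that acts in CThPN, lies on chromosome 15 from 40655035 to 41104592. With 986, 896 and 909 normalized counts for wildtype against 907, 949 and 888, it differed by -0.02 on the log2 scale (95% interval -0.16 to 0.11, limma adjusted p = 0.934). The groups of both genes overlapped over most of their range.

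Sox5, an HMG box factor expressed across the deep layers, lies on chromosome 6 from 143828425 to 144781977. Wildtype values of 2424, 2144 and 2035 normalized counts stood against 2053, 2044 and 1808 for Zmiz1-KO, and the log2 fold change was -0.16 (standard error 0.069, 95% interval -0.31 to -0.01, limma adjusted p = 0.409). The groups overlapped at wildtype replicate 3, and the log2 fold change was -0.10 without replicate 3 labelled Zmiz1-KO. An antisense gene, Sox5os1, covers 9.25% of its exonic bases on the opposite strand, and reads of both genes cannot be told apart without strand, which the library kit does not mark. The other 9 members share no exonic base with another annotated gene.

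**Figure D2:**
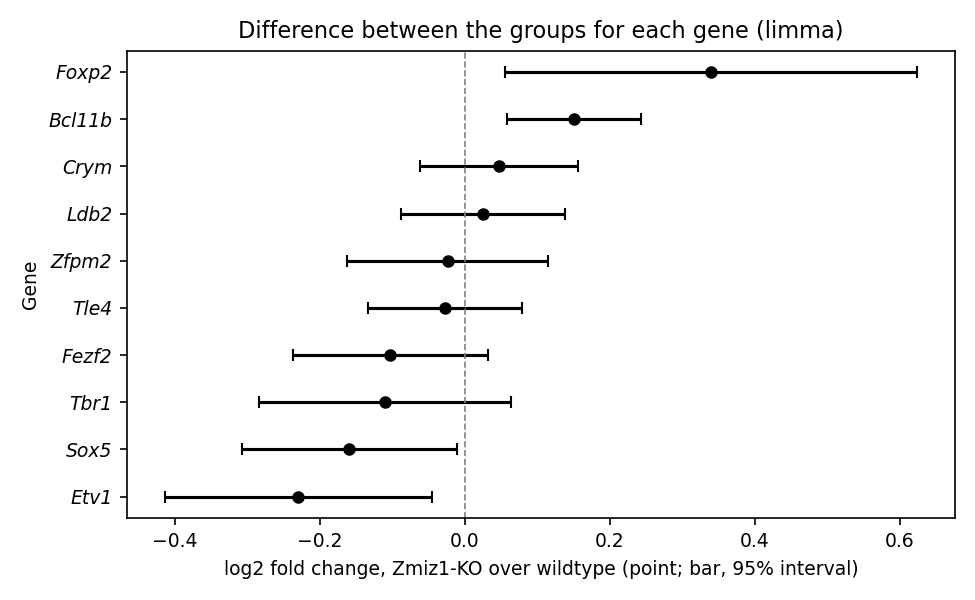
Log2 fold change of each of the 10 genes in the libraries labelled Zmiz1-KO over wildtype (points) with its 95% interval from limma (bars, 3 libraries per group). The intervals of Foxp2 (0.06 to 0.62) and Bcl11b (0.06 to 0.24) lie above 0 and those of Etv1 (-0.41 to -0.05) and Sox5 (-0.31 to -0.01) below it, before any adjustment for the number of genes tested.

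Ratios of genes within a library remove its overall scale. Between the normalized counts of Bcl11b and Etv1, both layer 5 genes, the ratio was 2.64, 3.13 and 3.11 for wildtype, and 3.59, 4.02 and 3.93 for Zmiz1-KO. For Foxp2 over Tle4, both layer 6 genes, it was 0.283, 0.387 and 0.376 for wildtype, against 0.425, 0.479 and 0.434. Both ratios were higher in every library labelled Zmiz1-KO. So was Bcl11b over Fezf2, at 4.47, 4.79 and 4.33 for wildtype against 5.12, 5.91 and 5.18. Foxp2 over Tbr1 overlapped, at 0.209, 0.364 and 0.301 for wildtype against 0.352, 0.444 and 0.374. None of these differences was tested, since the pairs were picked after their values were seen. Because gene length enters each ratio, only its change between libraries can be read.

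Per kb of exon (normalized counts divided by the exonic length in GENCODE M21), the 10 genes spanned a wide range of levels in wildtype. Crym was highest, with 1507 ± 109 normalized counts per kb (SD, n = 3), followed by Ldb2 (817 ± 54.0), Bcl11b (685 ± 17.97) and Tbr1 (613 ± 73.7). The wildtype ranges of Bcl11b and Tbr1 overlapped, so their order is not set by these libraries. Tle4 (483 ± 27.5) and Fezf2 (403 ± 13.2) came next, and Sox5 (153 ± 13.9) and Etv1 (142 ± 15.6) overlapped each other. Zfpm2 (97.6 ± 5.08) and Foxp2 (58.6 ± 9.64) were lowest. Since 20 transcripts are annotated for Foxp2 and 14 for Sox5, against 3 for Fezf2, the summed exonic length may exceed that of the transcripts present, which would lower the levels per kb of such genes.

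**Figure D3:**
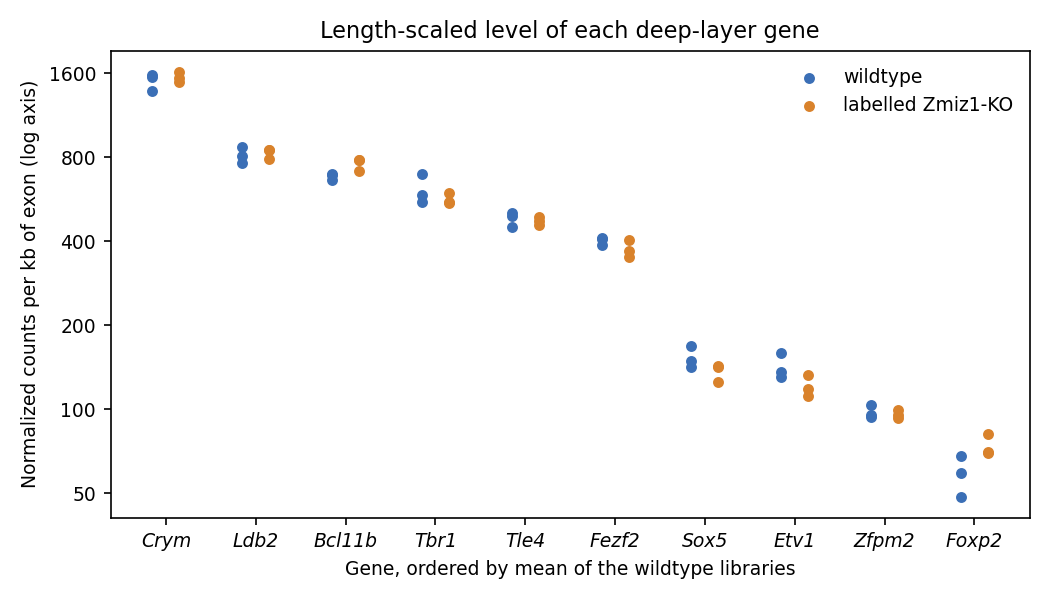
Normalized counts per kb of exon (log axis) of the 10 genes, with 1 point per library, wildtype in blue and the libraries labelled Zmiz1-KO in orange, ordered by the wildtype mean. The levels run from 1507 normalized counts per kb for Crym to 58.6 for Foxp2 in wildtype, a span far wider than any difference between the groups.

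RefSeq promoters (GRCm38.p6) were at hand for 6 of the 10 genes, with 8 start sites in all, namely those of Bcl11b, Fezf2, Tbr1, Sox5, Tle4 and Etv1. In the 250 bases before the start, they held 1 to 35 CpG dinucleotides, and 5 of the 8 held more than the median of 6 over all 32841 promoters. Shown are the promoter of the gene with the most negative difference, Etv1 (chr12:38779832-38780081, plus strand), and that of a gene with nearly none, Tle4 (chr19:14598184-14598433, minus strand), which overlap no annotated exon. CpG dinucleotides are in capitals, 9 in the first and 24 in the second.
Etv1: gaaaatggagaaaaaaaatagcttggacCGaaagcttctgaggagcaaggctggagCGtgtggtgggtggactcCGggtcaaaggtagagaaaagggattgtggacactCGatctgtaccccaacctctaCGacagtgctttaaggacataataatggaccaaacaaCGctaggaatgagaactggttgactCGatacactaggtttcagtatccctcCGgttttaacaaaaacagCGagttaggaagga
Tle4: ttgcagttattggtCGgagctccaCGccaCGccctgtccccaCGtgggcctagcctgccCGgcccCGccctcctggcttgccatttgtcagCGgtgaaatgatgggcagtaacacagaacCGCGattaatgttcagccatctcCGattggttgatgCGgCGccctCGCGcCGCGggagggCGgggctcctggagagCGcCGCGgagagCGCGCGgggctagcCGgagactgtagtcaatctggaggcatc
On both strands, 4 motifs were searched, and neither sequence held any of them. The core promoter box TATAAA was found in 12.4% of all 32841 promoters and, among the members, in the other promoter of Etv1. The T-box motif AGGTGTGA was found in 1.12% of all promoters and in no member promoter. The AP-1 motif TGANTCA was found in 6.75% of all promoters, that of Fezf2 included. The motif of SOX factors, ACAAAG, was found in 16.5% of all promoters, that of Tbr1 included. These are matches of letters in a window and not sites shown to be bound.

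Among the libraries, wildtype replicate 1 stood apart most often. It held the highest value of the 6 libraries for 6 of the 10 genes (Fezf2, Tbr1, Sox5, Ldb2, Zfpm2 and Etv1) and the lowest for 2 (Foxp2 and Crym). How often it was the extreme library over all tested genes was not counted. The same library was lowest for all 12 striatal projection neuron markers, all 10 interneuron markers and highest for all 9 upper-layer factors. Its summed striatal markers were 16629 normalized counts, against 21413 and 22118 in the other wildtype libraries and 23808 to 26757 in those labelled Zmiz1-KO. Without wildtype replicate 1, the log2 fold changes were 0.16 for Bcl11b, 0.21 for Foxp2, -0.14 for Etv1 and -0.09 for Sox5, none past the threshold (limma adjusted p of 0.3 for Bcl11b and 0.715 for Sox5, the others between).

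**Figure D4:**
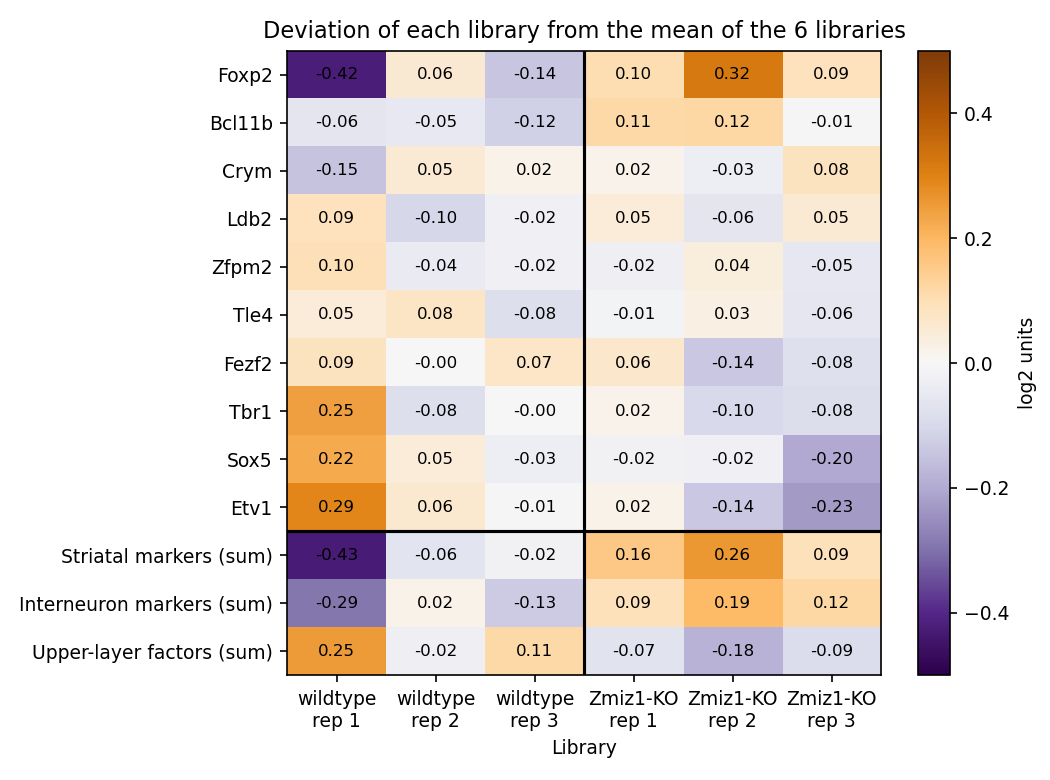
Deviation of each library from the mean of the 6 libraries, in log2 units, for the 10 genes (upper rows) and for the summed markers of striatal projection neurons and interneurons and the summed upper-layer factors (lower rows). Foxp2, the summed striatal markers and the summed interneuron markers are all lowest in wildtype replicate 1 and highest in replicate 2 labelled Zmiz1-KO.

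The 2 members that were higher in every library labelled Zmiz1-KO, Bcl11b and Foxp2, are also genes of the striatum. The other members were not checked for expression there, and Bcl11b was lowest in wildtype replicate 3. All 12 striatal markers had a positive log2 fold change (median 0.37, range 0.14 to 0.65). Each was lowest in wildtype replicate 1, so these sizes rest in part on that library. For Isl1, at 0.65, normalized counts were 78.4, 233 and 236 for wildtype against 250, 252 and 263. Only 1 of the 12, Pde10a, a phosphodiesterase, passed the threshold, with 4712, 4980 and 5134 normalized counts for wildtype against 6290, 6868 and 5986 (log2 fold change 0.37, standard error 0.051, limma adjusted p = 0.00303). Higher calls make up 0.165% of all tested genes. In 7 of the 12 the groups did not overlap, all higher, against 8.1% of all tested genes, and no marker was listed at 0 in any library. The summed interneuron markers ran from 18377 to 22812 normalized counts for wildtype and from 23933 to 25702 for Zmiz1-KO, and all 10 had positive values (median 0.28) with none called. The part of these cell populations in the values of Bcl11b and Foxp2 was not tested.

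Lists of further deep-layer genes held no call either. None of 12 further layer 5 markers was called, with 9 positive and 3 negative values and a median log2 fold change of 0.06. Those furthest from 0 were Cdh22, a cadherin (0.29, limma adjusted p = 0.340, groups apart), Otx1, a homeodomain factor (-0.21, limma adjusted p = 0.517, groups apart), and Diaph3, a formin (-0.19, limma adjusted p = 0.762). Without wildtype replicate 1, Cdh22 was at 0.15 and Diaph3 at -0.02, and without wildtype replicate 3 Diaph3 was at -0.40. At an unadjusted p under 0.05 there were 4 of the 12, all higher, where 5.13% of all tested genes were. The groups were apart for 2 of the 12 with higher values and 1 with lower values. Over all tested genes these shares were 8.1% and 8.16%.

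None of 9 further layer 6 markers was called, with 7 negative values and a median of -0.06. Those furthest from 0 were Nfib (-0.09, limma adjusted p = 0.386) and Nfia (-0.08, limma adjusted p = 0.661), both nuclear factor I genes, and Garnl3 (-0.08, limma adjusted p = 0.496). Nfia was at -0.02 without wildtype replicate 1, -0.14 without wildtype replicate 3 and -0.05 without replicate 3 labelled Zmiz1-KO. Nfib ran from 5744 to 5896 normalized counts for wildtype and from 5374 to 5549 for Zmiz1-KO, and Garnl3 was also without overlap, as in 8.16% of all tested genes. The layer 6 list ran from -0.09 to 0.03 on the log2 scale.

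Of 15 close relatives of the members, none was called. Fezf1, the sister gene of Fezf2 and hardly expressed here, had 12.0, 31.6 and 24.7 normalized counts for wildtype against 37.8, 45.9 and 52.7 (log2 fold change 1.06, standard error 0.35, limma adjusted p = 0.249), and 0.67 without wildtype replicate 1. Eomes and Tbx21, the relatives of Tbr1, had values of -0.29 and -0.28 (limma adjusted p = 0.883 and 0.902), with 50.4 to 157 and 8.01 to 27.2 normalized counts over the 6 libraries. The median over the relatives was 0.02. Of 10 other regulators, partners and reported targets of the members, none was called (median -0.06). Nr2f1, a nuclear receptor that sets cortical areas, was lower in each library labelled Zmiz1-KO (-0.14, limma adjusted p = 0.283), as was Sox4 (-0.11, limma adjusted p = 0.347), which acts upstream of Fezf2, while Tshz3, a zinc finger factor, overlapped (-0.13, limma adjusted p = 0.663). Tshz3 was at -0.02 without wildtype replicate 1, and Nr2f1 at -0.09 without replicate 2 labelled Zmiz1-KO.

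The listed genes of the upper layers stood further from 0. Among 9 upper-layer and callosal transcription factors, all had negative values, with a median log2 fold change of -0.25, and 3 fell past the threshold: Rorb (-0.43, limma adjusted p = 0.00856), Pou3f2 (-0.27, limma adjusted p = 0.0213) and Lhx2 (-0.26, limma adjusted p = 0.0411). Lower calls make up 0.247% of all tested genes. Bhlhe22 (-0.26, limma adjusted p = 0.127), on this list, is also classed with SCPN genes in published data. The list is thus not confined to the upper layers. The number called ran from 0, without replicate 3 labelled Zmiz1-KO, to 6, without wildtype replicate 2, and was 1 without wildtype replicate 1, wildtype replicate 3 or replicate 1 labelled Zmiz1-KO. The mean of the log2 values differed between the groups by -0.24 over these 9 factors and by -0.01 over the 10 deep-layer genes, a difference between lists that was not tested. Both lists were chosen with earlier results of these data known, so neither the calls nor this difference can be set apart from that choice.

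Of 6 markers of the subplate and layer 6b, the neurons just below layer 6, only Cplx3, a complexin, was called, falling from 557, 440 and 510 to 375, 327 and 330 normalized counts (log2 fold change -0.54, standard error 0.10, limma adjusted p = 0.0269). Without wildtype replicate 1 it missed the threshold (limma adjusted p = 0.141), as it did without wildtype replicate 3 or without replicate 1 or 3 labelled Zmiz1-KO. Nxph4, a neurexophilin, and Ctgf, a secreted matrix protein, had positive values of 0.32 and 0.26 (limma adjusted p = 0.331 and 0.295), and Nxph4 was at 0.19 without wildtype replicate 1. The median of the list was 0.12, with 4 positive and 2 negative values.

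**Figure D5:**
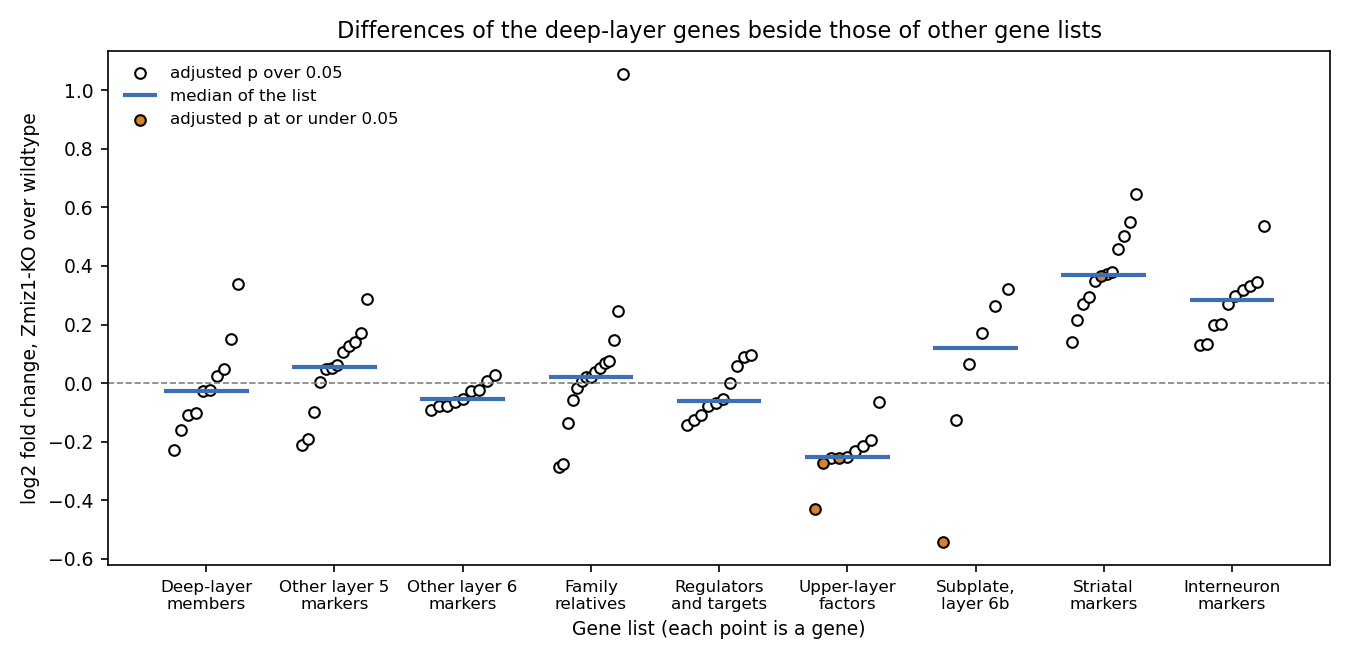
Log2 fold change of each gene in the libraries labelled Zmiz1-KO over wildtype, by gene list (points), with the median of each list (blue line) and genes at an adjusted p at or under 0.05 filled in orange. The 10 deep-layer genes (median -0.03) spread around 0 with none called, while the 9 upper-layer factors (median -0.25) all lie below 0 and the 12 striatal markers (median 0.37) all above it. All lists were chosen with earlier results of these data known.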

How the data were processed

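Total RNA from dissected P7 cortices (3 libraries per genotype) was prepared with a TruSeq RNA v2 kit and sequenced. The authors aligned the reads to mm10 with STAR in Illumina BaseSpace and normalized gene counts with DESeq2, and the deposited table holds the resulting normalized signal values, called normalized counts here. Versions and annotation are not given in the sources used here. In a library, 91.6 to 93.6% of the low but 19.6 to 20.4% of the high values lay within 0.1 of a whole multiple of its most common low value, so whole reads were not recovered and no count test was run.

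A gene entered the test where 3 or more libraries reached a value of 10, and was tested as log2(value + 1) with limma (version 3.58.1, R version 4.3.3, trend and robust), without covariates, two-sided, and adjusted by Benjamini-Hochberg over all tested genes. A call is an adjusted p at or under 0.05. Intervals (95%) come from the same fit. For single genes, the exact permutation test over 3 against 3 libraries cannot give a p below 0.1. Lists were read from this fit without a set test, in 6 lists of related genes and 9 of cell type markers. The text names all members, Zmiz1, Xist, list genes that were called and, in related lists with fewer than 3 calls, the 3 with the largest absolute log2 fold change. Ratios of members, Slc17a7 and Bhlhe22 were added with their values known. The members and lists were chosen with earlier results of these data known. Ccn2 and Diap3 were matched as Ctgf and Diaph3. Annotation came from GENCODE M21 (GRCm38, the build named mm10). The procedure was tested on simulated data. Alternatives were limma-voom, other scalings, pseudocounts and filters, no robust estimation, a covariate for Xist above 1000, an adjusted p of 0.1, the replicate number as a block and leaving out each library. Figures were drawn with matplotlib (version 3.10.9).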

Additional observations from a re-analysis of the deposited data

How the results depend on the processing

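Over 17 alternatives for each of the 10 deep-layer genes (170 values), 164 kept their direction and their side of the threshold. With the replicate number as a block, 2 of the 10 were called, Foxp2 (0.34, limma adjusted p = 0.0212) and Etv1 (-0.23, limma adjusted p = 0.0337), and under the other alternatives none was. Deviations of same-numbered libraries from their group means correlated at -0.0051, -0.11 and -0.0063, and those of the other pairs at -0.096 to 0.11. The labels name no pairing, and with 3 libraries per group these correlations cannot show if one exists. Directions reversed for 4 members with 1 library left out, which gave -0.075 to 0.0036 for Tle4 and -0.020 to 0.075 for Ldb2 (positive and negative, respectively, without wildtype replicate 2), and -0.014 to 0.084 for Crym and -0.051 to 0.018 for Zfpm2 (reversed without wildtype replicate 1). Of the other named genes, Eomes ran from -0.76 to 0.050 (reversed without replicate 3 labelled Zmiz1-KO) and Tbx21 from -0.59 to 0.22 (reversed without wildtype replicate 2). The cause was not tested.

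Over all tested genes, 65 were called, 17 without robust estimation, 168 with the replicate block, 106 at an adjusted p of 0.1, and 12 (without replicate 3 labelled Zmiz1-KO) to 151 (without replicate 2 labelled Zmiz1-KO) with 1 library left out (30 without wildtype replicate 1 and 17 without replicate 1 labelled Zmiz1-KO). Of the 9 upper-layer factors, 0 were called without robust estimation, 7 with the replicate block and 0 to 6 with 1 library left out. The single subplate call was lost (0 of 6) without robust estimation, and leaving out 1 library gave 0 to 1. The 4 other related lists had no call under any alternative that was run. The planned count tests were not run, because whole reads were not recovered. Scaling moved the median of all genes by at most 0.010 on the log2 scale. The limits are 3 libraries per group, bulk tissue, values per gene and not per exon, and an approximate depth.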

Other observations

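Glial, vascular and choroid plexus markers were read from the same fit as the deep-layer genes. Of 6 oligodendrocyte lineage markers, all had negative log2 fold changes (median -0.18) and Olig1, a factor of the lineage, fell past the threshold (-0.32, limma adjusted p = 0.00173). Of 5 astrocyte markers (median -0.05), Aqp4, the water channel of astrocyte endfeet, fell (-0.29, limma adjusted p = 0.00499), and missed the threshold without replicate 1 (limma adjusted p = 0.0506) or 3 (0.0815) labelled Zmiz1-KO. None of 5 microglia (median -0.14), 5 endothelial (median -0.04) or 5 thalamic markers (median -0.08) was called. Of 5 markers of cortical excitatory neurons (median -0.13), Emx1, whose control drives Cre, fell (-0.53, limma adjusted p = 0.0150), and missed the threshold without wildtype replicate 1 (limma adjusted p = 0.0883), wildtype replicate 3 (0.0632) or replicate 1 labelled Zmiz1-KO (0.0704). Only the Zmiz1-KO group carries this Cre, so for Emx1, as for every other gene here, the Cre allele and the deletion of Zmiz1 cannot be told apart.

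Summed choroid plexus markers ran from 342 to 8323 normalized counts in wildtype and from 355 to 4854 in the libraries labelled Zmiz1-KO, with none of the 5 called. The lowest libraries were wildtype replicate 1 and replicate 2 labelled Zmiz1-KO, which lie at opposite ends for the striatal markers.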
